A study of Rattus norvegicus with 6 samples.

Results

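The duct and pancreatic progenitor genes are a list of 8 named genes, and their accessible sites (ACS) are all regions of the deposited count table whose nearest gene is Sox9, Onecut1, Krt19, Neurog3, Gata4, Gata6, Prox1 or Spp1. There were 73 such ACS among 101603 distinct ACS, at 7 of the 8 genes. The libraries were ATAC-seq of dissociated islet cells from untreated Sprague-Dawley rats, a method in which the transposase Tn5 cuts accessible DNA and the cuts (integrations) are counted. The Adult group held 3 libraries, numbered 4 to 6, each of 1 male rat of about 3 months. The P10 group held 3 libraries, numbered 1 to 3, each of pooled male and female pups of 1 litter at postnatal day 10. For islet isolation, P10 pancreases were digested with collagenase by hand shaking, while collagenase was injected into the pancreatic duct of adult rats. Age therefore cannot be told apart from the sex of the animals, their pooling or the route of islet isolation. Whole islets hold several endocrine cell types with some duct, acinar, vascular and immune cells, and in such bulk material fewer cells of a type and less accessible DNA per cell cannot be told apart.

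In the embryonic pancreas, a branching epithelium of progenitor cells gives rise to acinar, duct and endocrine cells. Sox9, Onecut1 (also called Hnf6), Prox1, Gata4 and Gata6 are transcription factors of that epithelium, and Neurog3 is the factor switched on briefly in the cells that leave it to become endocrine. After birth Sox9, Onecut1, the keratin Krt19 and the secreted glycoprotein Spp1 (osteopontin) are known chiefly as genes of duct cells, and Gata4 is known in acinar cells. An ACS near such a gene in an islet library marks DNA open to Tn5 in at least some of the cells, and its nearest gene is not necessarily the gene it acts on.

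Neurog3 was nearest gene to 0 listed ACS, by symbol and by gene identifier. The beta cell markers G6pc2, Mafa and Pcsk1 also had 0 listed ACS, so this count alone does not show that DNA near Neurog3 was closed. The rest of the duct and progenitor genes had 20 ACS at Sox9, 12 at Onecut1, 5 at Prox1, 6 at Gata4, 21 at Gata6, 3 at Krt19 and 6 at Spp1. By the classes of the table, set by the distance from the first base of the ACS to the gene start, 6 ACS were TSS (under 1000 bp), 9 were PROXIMAL (up to 10000 bp) and 58 were DISTAL. The distal class made up 79.5% of these ACS and 79.3% of all ACS. They lay upstream of their gene in 44 cases, inside it in 8, downstream in 18 and across the start in 3, and 28 were over 100000 bp from the nearest end of the gene. Their median width was 358 bp, against 373 bp over all ACS, and their median level was 3.37 CPM, which is normalised integrations scaled to 1000000 per library after TMM correction of the library sizes, against 4.70 over all ACS. Per kb of ACS width the medians were 11.2 and 12.5 CPM.

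Gata6 and Spp1 had no ACS of the TSS class. The nearest ACS to Gata6 ended 487 bp before the gene start and the nearest to Spp1 ended 1759 bp before it. The 250 bases before the start of each gene are shown because these genes had no ACS of the TSS class. They come from RefSeq on GRCr8, a newer build than the Rn5 assembly of the ACS, so they were not placed against the ACS. RefSeq windows used here matched 3 of the 8 genes, and Neurog3, the third of them, had no ACS to compare. Capitals mark matches on either strand to 10 short motifs fixed in the search list, namely TATAAA (the TATA box), CCAAT (named by its letters), GGGCGG (the GC box), ATTGAT (a core of ONECUT factors), ATCGAT (the other ONECUT core), ACAATG (a core of SOX factors), AGATAA (for GATA factors), CAGATG (an E-box), CAGCTG (a second E-box) and TGACTCA (for AP-1).
Gata6, GRCr8 chr18:2460659-2460908, plus strand: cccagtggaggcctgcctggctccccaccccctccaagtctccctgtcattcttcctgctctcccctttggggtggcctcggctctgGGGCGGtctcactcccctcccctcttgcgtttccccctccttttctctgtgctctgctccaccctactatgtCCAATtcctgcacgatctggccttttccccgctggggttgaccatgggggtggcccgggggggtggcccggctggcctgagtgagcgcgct
Spp1, GRCr8 chr14:5619805-5620054, minus strand: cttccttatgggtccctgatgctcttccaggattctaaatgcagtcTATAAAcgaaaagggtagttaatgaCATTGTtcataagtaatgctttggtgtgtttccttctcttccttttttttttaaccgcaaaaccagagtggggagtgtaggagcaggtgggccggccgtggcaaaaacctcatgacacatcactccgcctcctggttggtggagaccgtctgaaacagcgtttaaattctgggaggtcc

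The Gata6 window held 1 match to GGGCGG, from base -163 to -158 before the start, and 1 match to CCAAT, from base -91 to -87. These motifs were present in 30.5% and 34.02% of the 33469 promoter windows of the same length. The Spp1 window held 1 match to TATAAA, from base -204 to -199, a motif found in 12.9% of windows, and 1 match to ACAATG on the reverse strand, from base -179 to -174, found in 11.1%. The GC content was 66.0% in the Gata6 window and 46.8% in the Spp1 window, with a median of 51.2% over all windows. The other motifs were not among the letters of either window.

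Adult and P10 islets were compared to ask which ACS change during postnatal islet maturation. Each of the 101603 ACS was tested with edgeR's quasi-likelihood test, and called at a p under 0.05 with a Benjamini-Hochberg FDR under 0.2, the limits of the study. Fold changes are log2 values of Adult over P10, so that positive values mean more integrations in adults. Of the 73 ACS of the duct and progenitor genes, 5 were called higher in adults and 6 lower, 6.85% and 8.22%. Over all ACS, 12.3% were called higher and 6.63% lower, 18.9% in either direction, so the share of called ACS (15.1%) was near the background, with a split between the directions that was more even. The split depended on the scaling. With column sums as library sizes 4 of these ACS were higher and 10 lower, and the share of higher among all called ACS went from 65.0% to 49.3%. With total reads, where the median of all ACS moved to -0.84, 0 were higher and 49 lower, and that share was 1.69%. The median log2 fold change was -0.11 over these ACS and -0.01 over all ACS. The CPM of the 2 ages did not overlap at 14 of the 73 ACS (19.2%), against 24.7% of all ACS. The called ACS were 5 at Sox9, 3 at Onecut1, 2 at Gata6 and 1 at Spp1, and none of the 14 ACS of Prox1, Gata4 and Krt19 was called.

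**Figure D1:**
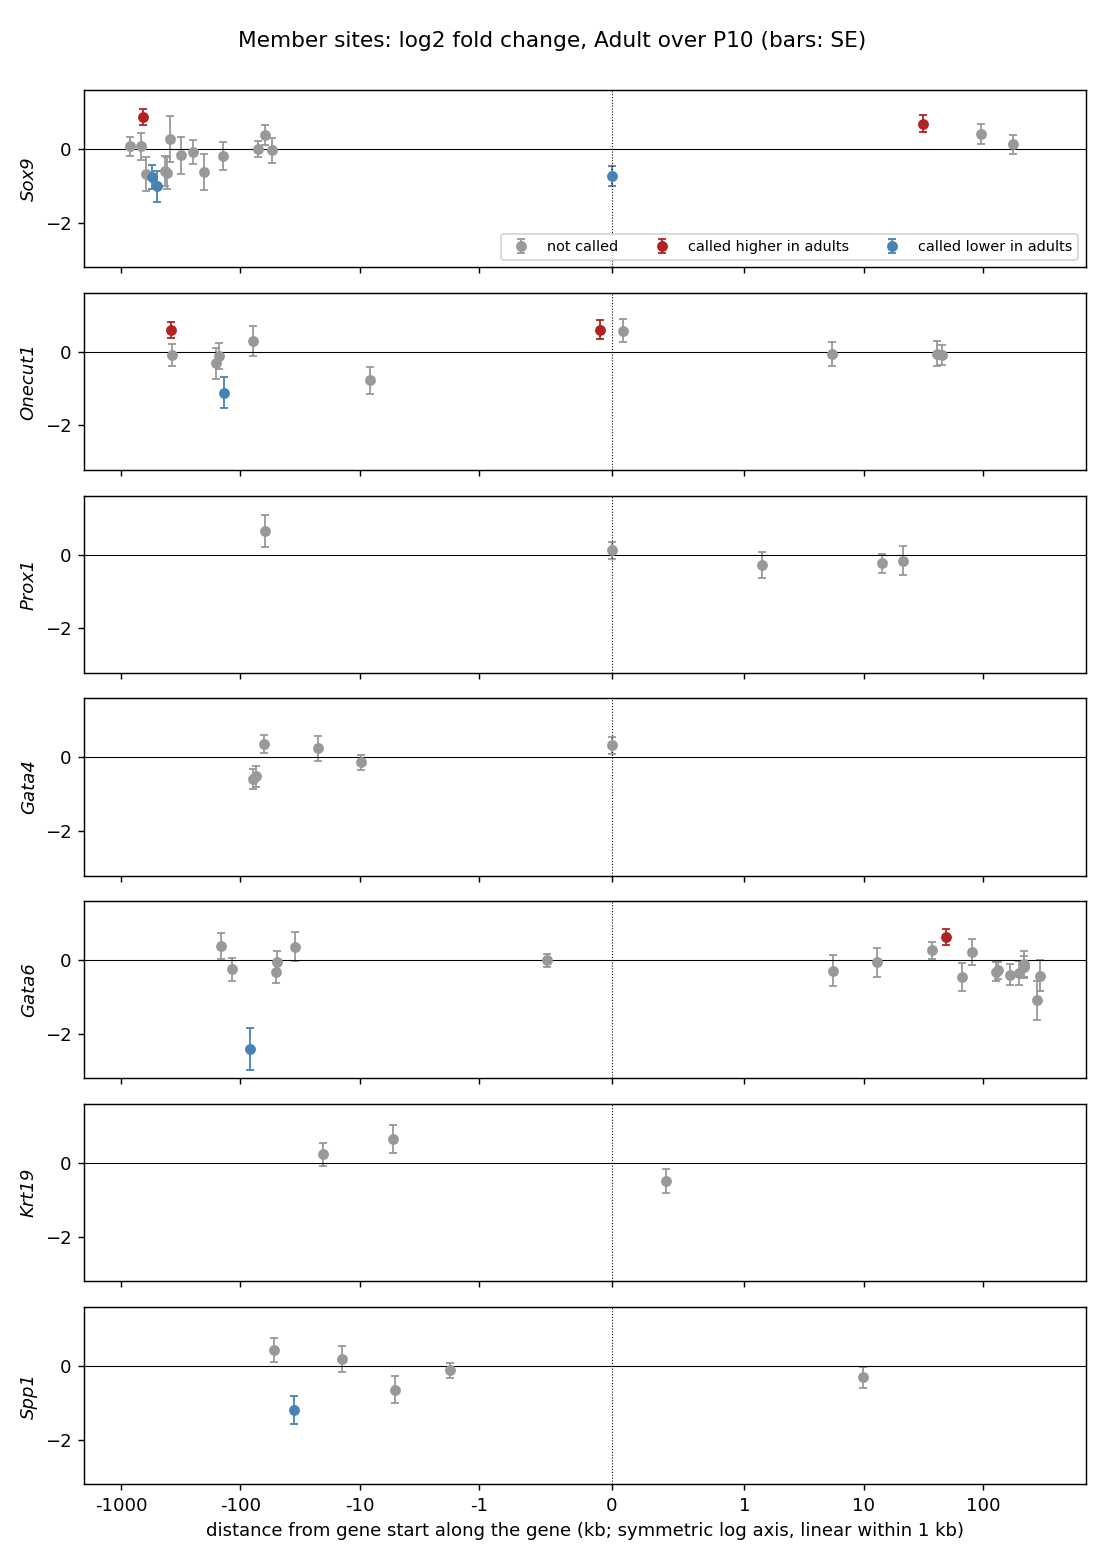
Log2 fold change (Adult over P10, bars are SE) of each of the 73 ACS against its distance in kb from the start of its gene, with upstream to the left, on a symmetric log axis that is linear within 1 kb. Called ACS are red (5 higher in adults) or blue (6 lower), and both colours occur within Sox9, Onecut1 and Gata6.

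The ACS called in opposite directions differed in their level. The 5 called higher had mean levels from 6.18 to 23.0 CPM and widths from 408 to 615 bp. The 6 called lower had mean levels from 1.004 to 6.95 CPM and widths from 251 to 529 bp. Raw counts ranged from 56 to 426 per library in the former and from 1 to 179 in the latter, so the lower calls rest on fewer integrations. All 5 higher ACS and 4 of the 6 lower ACS had no overlap between the ages. They were picked by a test of the ages on the same libraries, so this separation adds no evidence to the calls.

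Sox9, which keeps progenitor cells in their state and marks duct cells later, had the most called ACS. The ACS across its start (chromosome 10, 100964601 to 100965129 on Rn5) had 5.78, 6.33 and 3.35 CPM in Adult libraries 4, 5 and 6 and 8.32, 8.70 and 9.20 CPM in P10 libraries 1, 2 and 3. All adult libraries were below all P10 libraries, and Adult 6 was the lowest. The means were 5.16 ± 1.59 CPM in adults and 8.74 ± 0.44 CPM at P10 (SD, n = 3 each), a log2 fold change of -0.74 (SE 0.27, edgeR adjusted p = 0.082). The call was lost without Adult 6 and without P10 3. Integrations at the start made up 5.05% of all Sox9 integrations in adults and 9.08% at P10.

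A pair of distant Sox9 ACS went the other way. The ACS 649952 bp upstream (chromosome 10, 100314445 to 100314872) had 17.5, 13.8 and 15.1 CPM in the adult libraries and 10.6, 7.06 and 7.82 CPM in the P10 libraries, with every adult library above every P10 library. Its log2 fold change was 0.86 (SE 0.23, edgeR adjusted p = 0.014), a 1.82-fold higher level in adults, and the call held when any 1 of the 6 libraries was left out. The ACS 31555 bp downstream of the start (100996379 to 100996834) had 11.4, 10.7 and 11.7 CPM in adults and 6.65, 7.56 and 6.87 CPM at P10, with the libraries of each age close together. Again the ages did not overlap, and the log2 fold change of 0.68 (SE 0.23, edgeR adjusted p = 0.062) was called in each of the 6 fits without 1 library.

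The upstream side of Sox9 also held 2 called ACS with fewer integrations in adults. The ACS 501288 bp upstream (100463239 to 100463536) had 1.27, 0.88 and 0.64 CPM in adults and 1.95, 1.43 and 2.38 CPM at P10, with no overlap and raw counts of at most 45. Its log2 fold change was -1.02 (SE 0.43, edgeR adjusted p = 0.15). The ACS 547539 bp upstream (100416928 to 100417285) had 4.07, 2.92 and 2.71 CPM in adults and 5.67, 3.14 and 7.61 CPM at P10, where P10 2 lay within the adult range. Its log2 fold change was -0.76 (SE 0.33, edgeR adjusted p = 0.16). Each of these calls was lost in 4 of the 6 fits without 1 library, those without Adult 5, Adult 6, P10 1 or P10 3. Between 614898 and 413739 bp upstream, all 5 neighbouring ACS, chosen after their values were seen, had log2 fold changes from -1.02 to -0.61, of which only these 2 were called.

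The Sox9 ACS with the highest mean level, 71495 bp upstream (100892438 to 100893329), was not called. It had 20.1, 15.9 and 11.2 CPM in adults and 16.5, 17.3 and 14.3 CPM at P10, with the P10 values inside the adult range and a log2 fold change of -0.02 (SE 0.22). The 15 uncalled Sox9 ACS ranged from -0.68 to 0.41 on the log2 scale.

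Onecut1, a cut-homeodomain factor that acts upstream of Neurog3 in the embryo and stays on in ducts, had an ACS on either side of its start, 171 bp apart. The ACS ending 89 bp before the start (chromosome 8, 81384428 to 81384835) had 6.60, 8.47 and 7.22 CPM in adults and 4.79, 5.35 and 4.65 CPM at P10. The ACS beginning 83 bp after it (81385007 to 81385275) had 4.88, 4.09 and 3.74 CPM in adults and 3.25, 2.64 and 2.70 CPM at P10. At both ACS every adult library was above every P10 library. The log2 fold changes were alike, 0.59 (SE 0.26, edgeR adjusted p = 0.17) and 0.57 (SE 0.31, edgeR adjusted p = 0.30), and only the former passed the call. That call was lost in 5 of the 6 fits without 1 library, all but the fit without Adult 4.

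The most accessible Onecut1 ACS was 377937 bp upstream (81006393 to 81006987), with 37.2, 23.8 and 21.8 CPM in adults and 19.8, 19.8 and 15.8 CPM at P10. Adult 4 was far above the rest, and the other adult libraries were still above all P10 libraries. The log2 fold change was 0.59 (SE 0.21, edgeR adjusted p = 0.075), and the call was lost without Adult 4 and without P10 3. The next ACS, 374836 bp upstream, was level between the ages, at -0.09 (SE 0.29) on the log2 scale, and missed the call. The ACS 137260 bp upstream (81247399 to 81247664) had 0.90, 1.36 and 1.03 CPM in adults and 1.35, 2.57 and 3.28 CPM at P10, where P10 1 was level with Adult 5. Its log2 fold change was -1.11 (SE 0.43, edgeR adjusted p = 0.11), lost without Adult 4, Adult 6, P10 2 or P10 3. The remaining 9 Onecut1 ACS, the second promoter ACS among them, had log2 fold changes from -0.78 to 0.57.

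Gata6, a zinc-finger factor needed with Gata4 for pancreas formation, held the ACS with the strongest change of all 73. The ACS 83495 bp upstream (chromosome 18, 2351705 to 2351955) had raw counts of 5, 1 and 3 integrations in the adult libraries and 30, 34 and 24 in the P10 libraries. These were 0.45, 0.097 and 0.39 CPM in adults and 1.39, 2.43 and 1.27 CPM at P10, with no overlap although the P10 libraries differed among themselves. The log2 fold change was -2.40 (SE 0.56, edgeR adjusted p = 0.0053) and stayed between -2.85 and -1.95 without any 1 library, with the call kept each time. DESeq2 gave a like fold (-2.45) but no adjusted p for this ACS. At 0.31 ± 0.19 CPM (SD, n = 3) in adults this was also an ACS of very low level.

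The ACS 49142 bp downstream of the Gata6 start (2484592 to 2485206) was higher in adults. It had 18.1, 14.2 and 19.9 CPM in adults and 9.48, 10.8 and 13.2 CPM at P10, with no overlap, Adult 5 coming close to P10 3. The log2 fold change was 0.64 (SE 0.22, edgeR adjusted p = 0.064), lost without Adult 6 and without P10 2. The most accessible ACS of Gata6, that ending 487 bp before its start (2434353 to 2434963), was level between the ages, with 29.1, 22.3 and 24.8 CPM in adults and 26.3, 22.2 and 27.7 CPM at P10. Its log2 fold change was -0.0013 (SE 0.18), the smallest in size of all 73. The 8 ACS from 127486 to 300232 bp downstream, a stretch chosen after its values were seen, all had negative log2 fold changes, from -1.08 to -0.11, and 0 of them were called.

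Gata4, the closest relative of Gata6, had no called ACS. The ACS across its start (chromosome 15, 50197548 to 50198169) had 9.31, 12.8 and 11.2 CPM in adults and 8.09, 8.27 and 9.99 CPM at P10, with Adult 4 inside the P10 range and a log2 fold change of 0.33 (SE 0.23, edgeR adjusted p = 0.45). The ACS 9666 bp upstream (50207374 to 50208058), its most accessible, had 16.5, 14.8 and 12.3 CPM in adults and 17.9, 14.0 and 16.0 CPM at P10, which overlapped. The 6 Gata4 ACS had log2 fold changes from -0.57 to 0.36. The ACS 77802 bp upstream came closest to the limit from outside, with a log2 fold change of -0.57 (SE 0.27) and an edgeR adjusted p of 0.22.

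Prox1, a homeodomain factor of the early pancreatic epithelium, had 5 ACS, none called. The ACS across its start (chromosome 13, 113004467 to 113005204) had 18.5, 12.9 and 14.7 CPM in adults and 19.6, 11.2 and 11.6 CPM at P10. Adult 4 and P10 1 were the high libraries of their ages, and the ages overlapped fully, with a log2 fold change of 0.12 (SE 0.23). The same 2 libraries were high for the sum over all Prox1 ACS, at 38.4 CPM in Adult 4 against 28.6 and 28.1 in the other adults, and at 45.1 CPM in P10 1 against 27.0 and 25.3 in the other P10 libraries. The log2 fold change of that sum, -0.04, moved between -0.17 and 0.23 when 1 library was left out, and turned positive without Adult 5, Adult 6 or P10 1. These 2 libraries were also the highest of their ages for the summed levels of 5 of the 9 lists of other genes, those of duct, progenitor, beta, alpha and endothelial cells. For the duct list the sums were 941 CPM in Adult 4 (814 and 858 in the others) and 837 CPM in P10 1 (795 and 733), and for beta cell markers 1134 CPM (946 and 1026) and 1257 CPM (912 and 933). For the Spp1 sum they were instead the lowest of their ages, at 32.7 CPM in Adult 4 (36.5 and 38.0 in the others) and 36.95 CPM in P10 1 (41.9 and 42.1). Over the 73 ACS, Adult 4 was the highest adult library at 28 and Adult 5 at 27. P10 1 was the highest P10 library at 29 and P10 2 at 24. The part of Adult 4 and P10 1 in the Prox1 values was not tested.

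Krt19, a keratin of duct cells, had 3 ACS, none called. The ACS 406 bp inside the gene (chromosome 10, 87852535 to 87852829), its only TSS-class ACS, had 1.99, 2.44 and 3.22 CPM in adults and 3.49, 3.92 and 3.12 CPM at P10, where Adult 6 reached into the P10 range. The log2 fold change was -0.47 (SE 0.33, edgeR adjusted p = 0.45). The ACS 5277 bp upstream (87858512 to 87858859) had 9.67, 4.48 and 4.77 CPM in adults and 7.30, 2.71 and 1.85 CPM at P10, so that Adult 4 and P10 1 were each well above their own age there. The log2 fold change of 0.66 (SE 0.38, edgeR adjusted p = 0.33) was between 0.20 and 1.48 without 1 library, and was called only without P10 1. Adult 4 was the lowest adult library at the TSS-class ACS and at that 20418 bp upstream (2.71 CPM, against 4.77 and 6.32 in the other adults).

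Spp1, which duct cells secrete, had 1 called ACS of 6. The ACS 35390 bp upstream (chromosome 14, 6694327 to 6694675) had 1.08, 1.27 and 1.68 CPM in adults and 2.46, 3.85 and 2.86 CPM at P10, from raw counts of 12, 13 and 13 and of 53, 54 and 54. All adult libraries were below all P10 libraries, and the log2 fold change was -1.19 (SE 0.38, edgeR adjusted p = 0.046), a 2.29-fold higher level at P10, lost only without P10 2. The most accessible Spp1 ACS, 1759 bp upstream (6660696 to 6661335), had 20.4, 19.5 and 20.1 CPM in adults and 16.7, 23.5 and 24.9 CPM at P10. The adult libraries were nearly equal there and lay within the P10 range, with a log2 fold change of -0.12 (SE 0.20).

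**Figure D2:**
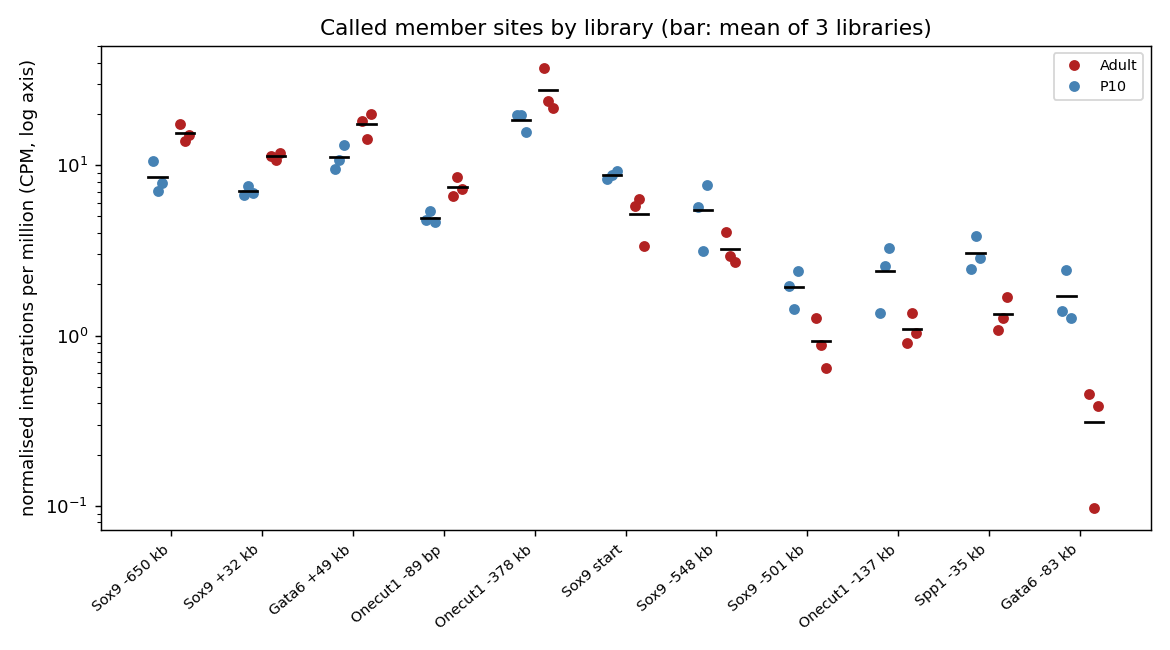
Normalised integrations (CPM, log axis) of the 11 called ACS in each library, ordered by fold change and named by gene and distance from its start, with adult libraries red, P10 libraries blue and a bar at each mean of 3 libraries. The points of the 2 ages overlap only at the Sox9 ACS 547539 bp upstream and the Onecut1 ACS 137260 bp upstream.

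Promoters were next compared as 1 value per gene, by summing the TSS-class ACS of each of 9810 genes, of which 6.59% were called higher in adults and 5.32% lower. Sox9, Gata4, Prox1 and Krt19 had 1 TSS-class ACS each, so for them this is the ACS given above, fitted again. In the fit of all ACS, 2.73% of TSS-class ACS were called higher and 7.87% lower. Among the 5 genes with a TSS-class ACS, Onecut1 was higher and Sox9 was lower. The summed Onecut1 promoter had a log2 fold change of 0.67 (SE 0.20, edgeR adjusted p = 0.060), called also in each of the 6 fits without 1 library. This is above the 0.59 and 0.57 of its ACS, because promoter sums were scaled with their own library factors. The median over all promoters was -0.01 in this fit, and that of TSS-class ACS was -0.10 in the fit of all ACS. Values of these fits therefore do not share a baseline. The Sox9 promoter had -0.66 (SE 0.24, edgeR adjusted p = 0.13), lost without Adult 4, Adult 6, P10 2 or P10 3. The Gata4 promoter had 0.42 (SE 0.22, edgeR adjusted p = 0.30), called only without Adult 4, the Prox1 promoter 0.21 (SE 0.20), called only without P10 1, and the Krt19 promoter -0.38 (SE 0.33).

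Over all ACS of a gene the changes were small. Of 14776 nearest genes 18.2% were called on summed integrations, and of the 7 duct and progenitor genes 0 were called by edgeR, as by DESeq2 and limma voom, and 0 had an unadjusted p under 0.05. The Gata6 sums were 112, 106 and 117 CPM in adults and 112, 114 and 116 CPM at P10, which overlapped, with a log2 fold change of -0.04 (SE 0.11). The Sox9 sums were 114, 104 and 88.6 CPM in adults and 99.4, 94.0 and 95.3 CPM at P10, where the adult libraries spread on both sides of the P10 libraries, with 0.08 (SE 0.11). Onecut1 came closest to a difference, with 78.4, 64.4 and 57.4 CPM in adults and 59.8, 58.8 and 53.8 CPM at P10, a log2 fold change of 0.21 (SE 0.12, edgeR adjusted p = 0.31), and was not called in any fit without 1 library. Spp1 was at 35.8 ± 2.74 CPM in adults and 40.3 ± 2.90 CPM at P10 (-0.18, SE 0.14), Krt19 at 13.5 ± 1.53 and 11.3 ± 3.78 CPM (0.25, SE 0.22, called at 0.50 only without P10 1), and Gata4 at 49.3 ± 1.43 and 49.95 ± 1.71 CPM (-0.02, SE 0.12), all SD with n = 3. Exact two-sided permutation tests of the 7 sums gave p from 0.2 to 1, where 3 against 3 libraries cannot give less than 0.1.

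**Figure D3:**
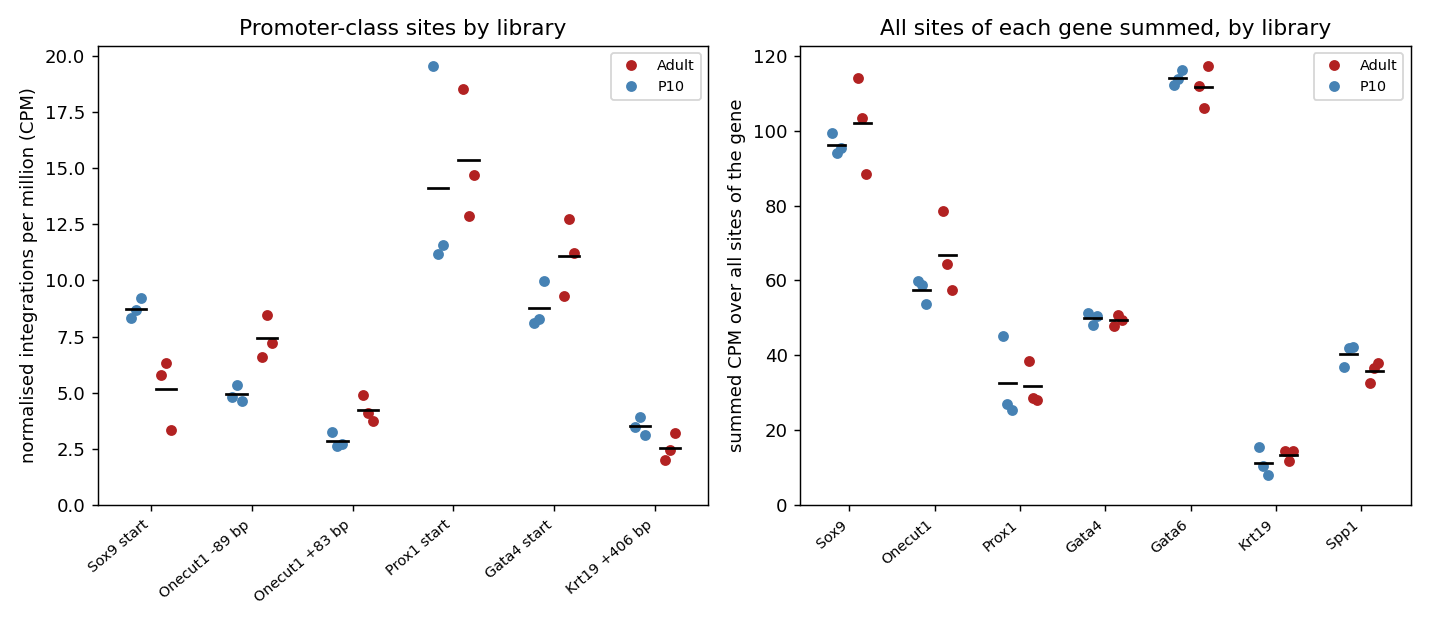
CPM of the 6 TSS-class ACS (left) and CPM summed over all ACS of each gene (right) in each library, adults red and P10 blue, with a bar at each mean of 3 libraries. The ages are apart at the start of Sox9 (adults lower) and at both Onecut1 ACS (adults higher), while the ages of every summed value overlap.

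Whether the ACS of 1 gene changed unequally was tested with edgeR's diffSpliceDGE, which sets each ACS against the other ACS of its gene. By its F test the ACS differed within 5 of the 7 genes, where 43.8% of 11461 genes were called. These were Gata6 (edgeR adjusted p = 0.0054), Sox9 (0.0075), Onecut1 (0.0083), Spp1 (0.057) and Gata4 (0.058), and not Krt19 (0.27) or Prox1 (0.64). The share of 43.8% covers every gene with 2 or more ACS and was not matched for the number of ACS. That number was 21 at Gata6, 20 at Sox9 and 12 at Onecut1, but 6 at Spp1 and Gata4, 3 at Krt19 and 5 at Prox1. Gata6 was called in all 6 fits without 1 library, Sox9 and Onecut1 in 5 (lost without P10 3), Gata4 in 3 (lost without Adult 5, P10 1 or P10 2) and Spp1 only without P10 3. Of the 73 ACS, 9 differed from the rest of their gene, near the background of 14.6% of all ACS tested. They were the ACS of Gata6 at 83495 bp upstream (-2.37 on the log2 scale relative to the gene, adjusted p = 0.0010) and 49142 bp downstream (0.67, adjusted p = 0.069), those of Sox9 at the start and at 649952, 547539 and 501288 bp upstream, those of Onecut1 at 137260 and 8125 bp upstream, and that of Spp1 at 35390 bp upstream. In the 6 fits without 1 library, the Gata6 ACS at 83495 bp upstream was called in 6, those of Gata6 at 49142 bp downstream, Sox9 at 649952 bp and Onecut1 at 137260 bp upstream in 4, those of Sox9 at the start and at 547539 bp and of Spp1 in 3, that of Onecut1 at 8125 bp in 2 and that of Sox9 at 501288 bp in 1. The promoter ACS of Onecut1 did not pass this test, with 0.38 (adjusted p = 0.55) and 0.35 (adjusted p = 0.67) relative to the gene, and the Sox9 start did, with -0.83 (adjusted p = 0.082).

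Other genes of the same cells were taken from lists. Of 20 other duct genes 15 had an ACS, with 104 ACS of which 12 were called higher (11.5%) and 6 lower (5.77%), near the background, at a median log2 fold change of 0.00. Of 12 duct promoters 0 were higher and 2 lower, against the same 6.59% and 5.32% of all promoters. Cftr, the chloride channel of duct cells, had a promoter level of 11.4 CPM in adults and 18.8 CPM at P10 (-0.65, SE 0.21, edgeR adjusted p = 0.084), and Cldn7, a tight-junction protein, had 8.47 and 14.3 CPM (-0.65, SE 0.21, edgeR adjusted p = 0.087). Summed over all its ACS, Cftr was higher in adults (0.61, edgeR adjusted p = 0.034), so that its promoter and its sum were called in opposite directions, while Cldn7 was lower in both.

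Of 18 other genes of progenitors and endocrine differentiation 16 had an ACS, with 330 ACS of which 34 were called higher (10.3%) and 43 lower (13.03%), at a median log2 fold change of -0.00. The shares over all ACS were 12.3% and 6.63%. Of 13 promoters 1 was higher and 3 were lower, where 6.59% and 5.32% of all promoters were called. Foxa2, a forkhead factor of the foregut, had 36.1 CPM in adults and 51.7 CPM at P10 (-0.43, SE 0.12, edgeR adjusted p = 0.037). Hhex, a homeodomain factor of early pancreas and of delta cells, had 9.86 and 17.5 CPM (-0.73, SE 0.20, edgeR adjusted p = 0.042). Nr5a2, a nuclear receptor of progenitors and acinar cells, had 0.56 and 1.63 CPM (-1.48, SE 0.60, edgeR adjusted p = 0.17), a low level. Rbpj, the DNA-binding partner of Notch, had 148 and 123 CPM (0.35, SE 0.11, edgeR adjusted p = 0.082) and was the promoter called higher.

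**Figure D4:**
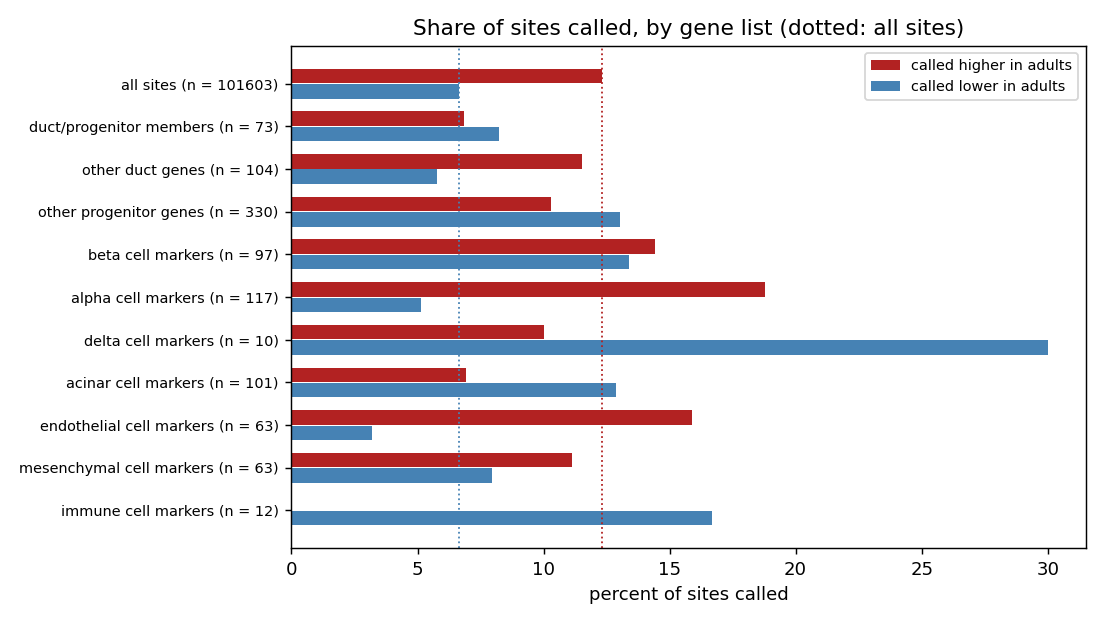
Percent of ACS called higher (red) or lower (blue) in adults for all ACS, for the duct and progenitor genes and for each list of other genes or cell markers, with the number of ACS in brackets and dotted lines at the shares over all ACS. The duct and progenitor genes sit at 6.85% higher and 8.22% lower, against 12.3% and 6.63% over all ACS, and lists of few ACS, such as delta (10) and immune (12), give coarse shares.

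Marker lists were used to describe the cells in the preparations. Summed over their ACS, the other duct genes ranged from 814 to 941 CPM in adults and from 733 to 837 CPM at P10, and acinar markers from 582 to 640 and from 594 to 597 CPM, both overlapping. Acinar markers had 7 ACS called higher and 13 lower of 101, at 13 of 18 genes, with Cela1, Prss2, Cel, Amy2 and Amy2a3 at 0 listed ACS. Endothelial markers, all 8 with an ACS, were higher in every adult library, from 427 to 518 CPM against 399 to 413 CPM, with 10 ACS called higher and 2 lower of 63. Its genes went both ways on their own sums, with Cdh5 (0.52, 28 ACS) and Kdr (0.33, 11 ACS) called higher and Plvap (-0.50, 1 ACS) and Erg (-0.57, 2 ACS) called lower, all 4 named after their values were seen. Alpha cell markers, all 6 with an ACS, were likewise higher in every adult library, from 944 to 1080 CPM against 812 to 902 CPM, with 22 higher and 6 lower of 117. Beta cell markers overlapped, from 946 to 1134 and from 912 to 1257 CPM, with 14 higher and 13 lower of 97 at 9 of 12 genes (G6pc2, Mafa and Pcsk1 at 0 listed ACS), as did delta cell (1 higher and 3 lower of 10), mesenchymal (7 and 5 of 63, at 7 of 8 genes) and immune markers (0 and 2 of 12, at 5 of 8 genes). Within the beta cell list, Ins1 (-0.59, edgeR adjusted p = 0.014) and Ins2 (-0.38, edgeR adjusted p = 0.14) were called lower on their sums, and 0 genes higher. Of the 28 Ins1 ACS, 2 were called higher and 9 lower. Slc2a2 and Ucn3 had 6 and 3 ACS called higher and 0 lower. These 4 beta cell genes were named after their values were seen. The part of these cell types in the changes at the duct and progenitor genes was not tested.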

How the data were processed

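ATAC-seq was made from dissociated islet cells of 3 adult and 3 P10 rat preparations. The authors aligned reads to Rn5 with BWA 0.7.13, discarded mitochondrial reads and reads with a mapping quality under 30, called peaks with MACS2 2.1.1 on the pooled libraries of each age, joined them and deposited raw counts of integrations, 1 column per library. Removal of PCR duplicates is not given in the sources used here. Columns of the authors' own comparison (fold change, mean level, F, p-value, FDR) were not used.

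Libraries held 7916919 to 11903909 integrations in ACS in adults and 13491534 to 21168463 at P10. Same-age libraries differed beyond counting error (chi-square per degree of freedom 3.35 to 7.81). The 101941 listed entries were reduced to 101603 distinct ACS. Counts were scaled by TMM and tested with edgeR 4.0.16 (R 4.3.3) per ACS, per gene sum, per promoter sum and with diffSpliceDGE, with age as the only term, no filter on low counts and Benjamini-Hochberg adjustment over the whole table. CPM per library always use the factors of the ACS fit, whereas each sum was fitted with its own factors. On simulated counts for the 101603 ACS of Adult against P10, 200 of them changed by 1 on the log2 scale, 38.5% of the changed ACS were called in the right direction, 83.0% had an unadjusted p under 0.05 in that direction, and 0 were called when nothing was changed. The simulation changed a far smaller share of ACS than the 18.9% called in the real data. It also gave ACS of like level the same spread between libraries, so these shares may not hold for the real fit.

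ACS were given with values for every library when they were of the TSS class, were called, or had the highest mean CPM of their gene. Genes of other lists were named when their promoter was called, when they had 0 listed ACS, or where the text says that they were named after their values were seen. Members and lists were chosen with earlier results of these data known. Alternatives were DESeq2 1.42.0, limma 3.58.1 (voom, cyclic loess with trend, diffSplice), other library sizes, a filter on low counts (minimum count 10, minimum total 15), an FDR under 0.05, every listed entry, and leaving out each library. Those for promoter sums were added after seeing the data. Figures were drawn with matplotlib 3.10.9 and permutation tests used scipy 1.17.1.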

Additional observations from a re-analysis of the deposited data

How the results depend on the processing

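Among the 73 ACS, counts stayed within 1.5 times of 5 higher and 6 lower with DESeq2 (5 and 4), limma voom, cyclic loess, median-of-ratios factors, the filter on low counts and every listed entry. Of the 11 called ACS, DESeq2 lost Sox9 501288 bp upstream (adjusted p = 0.22) and gave no adjusted p for Gata6 83495 bp upstream. limma voom lost Onecut1 137260 bp and Sox9 547539 bp upstream (adjusted p = 0.21 and 0.25), cyclic loess lost these with Sox9 501288 bp and the Onecut1 promoter ACS (0.20 to 0.27), and column sums lost the latter (0.25). Both limma voom and cyclic loess still counted 5 lower, because ACS outside the 11 were newly called there, so like counts did not mean the same ACS. Column sums gave 10 lower ACS of the duct and progenitor genes (over all ACS 10447 higher and 10732 lower, or 49.3% higher of the called ACS against 65.0%, with the median of all ACS at -0.10), and for genes 970 higher and 2182 lower. An FDR under 0.05 left 1 higher and 2 lower (all ACS 7177 and 1945), 0 promoters in either direction (all 207 and 134), 491 higher and 184 lower genes, 2 ACS differing from their gene (all 6282) and 3 genes holding such ACS. limma's diffSplice called 14 ACS.

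Total reads as library size moved the median of all ACS to -0.84 and gave 0 higher and 49 lower ACS (all 1062 and 61663), 6 lower genes of the list (all genes 11 higher and 12745 lower), and 0 higher and 3 lower promoters (all 2 and 9023). Signs turned to -0.49 at the start of Gata4, -0.18 at Gata6 49142 bp downstream, -0.26 at Krt19 5277 bp upstream, -0.25 at Onecut1 377937 bp upstream, -0.24 and -0.28 at its promoter pair, -0.77 at the start of Prox1, -0.0062 at Sox9 649952 bp upstream and -0.15 at Sox9 31555 bp downstream, and for sums to -0.64 (Krt19), -0.62 (Onecut1) and -0.75 (Sox9). Sox9 sums were also at -0.0104 with column sums and -0.0166 with cyclic loess, and Prox1 sums at 0.055 with cyclic loess. Apart from that shift, the cause was not tested.

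Leaving out 1 library gave 3 to 6 higher and 2 to 7 lower ACS of the list (all 7973 to 13232 and 3285 to 7215), 0 to 1 higher genes (all 466 to 1879 higher and 225 to 1459 lower), 1 to 2 higher and 0 to 1 lower promoters (all 235 to 826 and 169 to 624), 3 to 10 ACS differing from their gene (all 7170 to 14490) and 3 to 4 genes holding them. P10 3 gave the fewest lower ACS of the list (2). Uncalled values near 0 changed sign, from -0.114 to 0.0853 at Gata6 487 bp upstream, -0.0434 to 0.42 at the start of Prox1, -0.23 to 0.17 at Sox9 71495 bp upstream, and for sums -0.0585 to 0.0411 (Gata4), -0.10 to 0.0046 (Gata6) and -0.17 to 0.23 (Prox1).

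No paired analysis was possible because the ages share no replicate numbers. Of the 73 ACS, 6 had a mean under 20 integrations, where changes of modest size could not be detected, and 3 libraries per age limit every test.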
